A study of Saccharomyces cerevisiae with 4 samples.

Results

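The 10 genes described here encode the enzymes that turn inosine monophosphate (IMP) into guanine nucleotides and those that recover or break down purine bases in budding yeast. They are IMD2, IMD3, IMD4, GUA1, GUK1, HPT1, APT1, AAH1, GUD1 and AMD1, taken by name from the 5897 genes of the deposited table, and all 10 were found. The data are RNA sequencing of polyadenylated RNA from the industrial Saccharomyces cerevisiae strain CY, shaken for 10 h in rich medium of peptone, yeast extract and glucose. Cells of the 2 non-stress libraries were kept at 30 °C in 2% glucose. Those of the 2 stress libraries were kept at 36 °C in 10% glucose. No genetic change separates the groups in the labels. Temperature and glucose changed together and cannot be told apart, and nothing in the labels says that the libraries of a group came from separate cultures, so the spread behind the p-values is that of these samples and may be technical.

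IMP is the branch point of purine synthesis. IMP dehydrogenase, encoded by the IMD genes, oxidizes IMP to xanthosine monophosphate in the rate-limiting step toward GTP, GMP synthase (GUA1) aminates that product to GMP, and guanylate kinase (GUK1) phosphorylates GMP to GDP. Salvage enzymes attach bases to phosphoribosyl pyrophosphate (PRPP), with HPT1 using hypoxanthine and guanine and APT1 using adenine. Adenine deaminase (AAH1) makes hypoxanthine from adenine, AMP deaminase (AMD1) returns AMP to IMP, and guanine deaminase (GUD1) removes guanine as xanthine.

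Levels were given as FPKM, fragments divided by the length of the gene and by the total mapped in the library, so they can be compared between genes. Depth was not given as counts, and the spacing of low FPKM values put it at 18650000 and 18700000 fragments in the non-stress libraries and 18200000 in each stress library. Cytosolic ribosomal protein genes held 22.5% and 23.7% of the summed FPKM in the non-stress libraries and 1.54% and 1.57% in the stress libraries. FPKM is a share of a library, so this difference by itself gives the other genes a higher FPKM under stress, and all fits were repeated on libraries scaled without those genes.

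The IMD genes are related copies, and how far their reads can be told apart bears on every value below. IMD2 lies at chrVIII:554396-555967 on the plus strand, 6676 bases from the chromosome end. IMD3 lies at chrXII:1002557-1004128 on the plus strand, and both have 1 coding exon. IMD4 lies at chrXIII:162194-164176 on the minus strand and is the only one of the 10 genes with an intron, of 408 bases, which holds the small nucleolar RNA gene SNR54. All coordinates are of build R64. The coding sequence of IMD3 was 88.9% identical to that of IMD2 and 82.7% identical to that of IMD4. Of its 50-base windows, 8.01% also occurred in IMD2 and 7.03% in IMD4. On build R64 most reads of this length can thus be placed, and the rest depend on the authors' counting. The sequences of these copies in strain CY were not read and may differ. The 60 aligned coding bases at which IMD4 differs most from IMD3 are shown for the 3 genes, with capitals at positions where they are not all the same. They lie at chrVIII:554708-554767, chrXII:1002869-1002928 and, on the minus strand, chrXIII:163802-163861.

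IMD2: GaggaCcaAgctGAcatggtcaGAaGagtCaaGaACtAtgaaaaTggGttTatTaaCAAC

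IMD3: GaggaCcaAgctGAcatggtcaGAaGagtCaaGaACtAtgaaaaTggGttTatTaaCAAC

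IMD4: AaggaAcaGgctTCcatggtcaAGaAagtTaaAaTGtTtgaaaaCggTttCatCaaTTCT

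In this stretch IMD4 differs from IMD3 at 21 bases and IMD2 at 0. Of the windows of IMD2, 29.1% also occur at chrI:227854-229274, where the annotation used here lists no gene, so IMD2 is the least certain of the 3. The other 7 genes share no 50-base window with any other coding sequence.

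Under stress the genes from IMP to GDP (the IMD genes, GUA1 and GUK1) were lower and the gene of the enzyme that removes guanine was higher, with the call on IMD2 lost after quantile normalization. Of the 10 genes, 8 fell and 2 rose in limma fitted across all genes (Benjamini-Hochberg adjusted p threshold of 0.05). The 8 include IMD2, which passed the filter (an FPKM of 1 in 2 or more libraries) only through its non-stress libraries. A fall is thus built into its inclusion. At a minimum FPKM of 5, which removes IMD2, 7 fell and 2 rose. Across the 5784 genes tested, 87.7% changed, 47.9% falling and 39.8% rising, so a change as such does not set these genes apart. Their median log2 fold change, on the log2(FPKM + 1) scale used for all log2 fold changes here, was -2.55, beside -0.14 for all genes tested. The 10 genes were chosen with earlier results of these data known. This contrast with all genes and those that follow are thus descriptions and test nothing. At least 2-fold lower FPKM was found for 8 of the 10, IMD2 among them, and for 27.9% of all genes tested. At least 8-fold lower FPKM was found for 4 of the 10 and for 6.86% of all. The groups did not overlap for any of the 10 genes, as for 93.8% of genes tested. With the libraries scaled without ribosomal protein genes, the same counts of 8 and 2 were found, while over all genes 1606 rose and 3574 fell, against 2300 and 2771. The 10 genes together held 0.303% and 0.302% of the summed FPKM in non-stress and 0.0439% and 0.0429% in stress libraries.

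**Figure D1:**
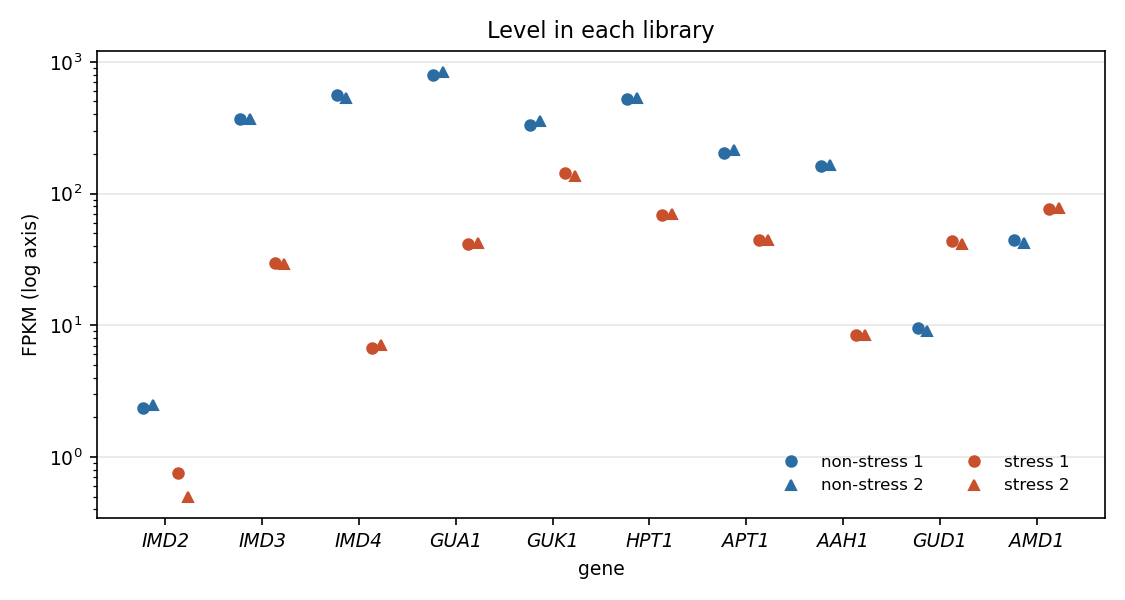
FPKM of each of the 10 genes in each of the 4 libraries, on a log axis, with circles for replicate 1 and triangles for replicate 2. Replicates lie close together, 8 genes are lower in both stress libraries, and GUD1 and AMD1 are higher in both.

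The largest fall of the 10 genes was that of an IMP dehydrogenase gene, and the copies fell unevenly. IMD4 stood at 555 and 527 FPKM in the non-stress libraries and at 6.69 and 7.02 FPKM in the stress libraries. Its level moved from above 94.7% of genes tested to above 8.52% of them. The ratio of means was 79.0-fold lower and the log2 fold change -6.11 ± 0.061 (SE, n = 2 per group; limma adjusted p = 5.34e-12), the 6th lowest of all genes tested.

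IMD3 stood at 370 and 371 FPKM in non-stress and at 29.5 and 28.9 FPKM in stress libraries. This was 12.7-fold lower, and the log2 fold change was -3.62 ± 0.052 (SE; limma adjusted p = 1.72e-11). IMD4 was 1.50 and 1.42 times the level of IMD3 in non-stress libraries, and IMD3 was 4.41 and 4.12 times the level of IMD4 in stress libraries. The order of these copies was thus opposite in the 2 groups, in every library. With 2 libraries against 2, the smallest two-sided p that an exact permutation test of this ratio can give is 0.333.

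IMD2, the copy that yeast is known to induce when guanine nucleotides run short, was barely detected in either condition. Its level was 2.36 and 2.47 FPKM in non-stress and 0.75 and 0.50 FPKM in stress libraries, which is about 68 and 71 estimated reads against 21 and 14. The groups did not overlap. The log2 fold change was -1.08 ± 0.22 (SE; limma adjusted p = 0.00123), and IMD2 passed the filter on low values only through its non-stress libraries. The call was lost after quantile normalization (-0.50, limma adjusted p = 0.0719), and a pseudocount of 0.1 gave -1.82. IMD3 had about 10591 and 10649 estimated reads in non-stress and 825 and 808 in stress libraries. Of the windows of IMD2, 8.01% also occur in IMD3. Whether reads of IMD3 make up part or all of the IMD2 values was not tested.

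Summed over the 3 genes, IMP dehydrogenase stood at 927 and 900 FPKM in non-stress and at 37.0 and 36.5 FPKM in stress libraries, a 24.9-fold difference of means. The genes are of nearly equal coding length (1572 or 1575 bases), so this sum hardly depends on how reads are split between the copies. IMD4 made up 59.9% and 58.5% of it in non-stress and 18.1% and 19.3% in stress libraries, while the share of IMD3 went from 39.9% and 41.2% to 79.9% and 79.4%.

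**Figure D2:**
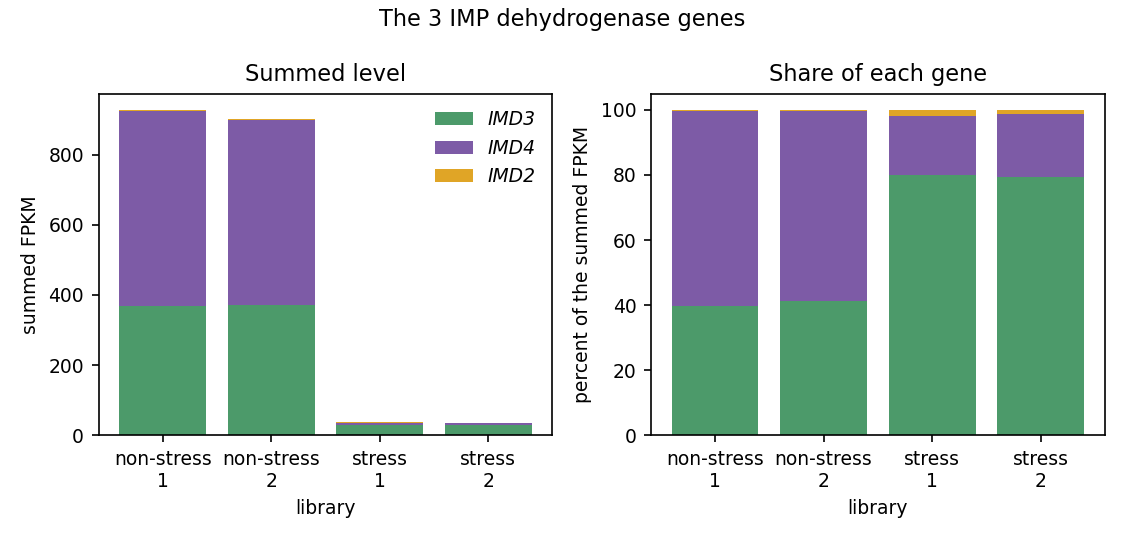
Summed FPKM of IMD2, IMD3 and IMD4 in each library (left) and the percent of that sum held by each gene (right). The sum goes from 927 and 900 FPKM to 37.0 and 36.5 FPKM, and the larger share passes from IMD4 to IMD3.

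The genes of the steps after IMP dehydrogenase fell by different amounts. GUA1 (chrXIII:701790-703367, plus strand), whose GMP synthase uses the product of the IMD enzymes, had the highest level of the 10 genes in non-stress libraries, at 800 and 837 FPKM. It stood at 41.1 and 42.2 FPKM in stress libraries, 19.7-fold lower, and its log2 fold change was -4.26 ± 0.052 (SE; limma adjusted p = 9.17e-12). GUK1 (chrIV:1366264-1366827, minus strand), the single guanylate kinase gene through which GMP of every source passes, was at 331 and 353 FPKM and at 144 and 135 FPKM. Its fall was smaller, 2.45-fold, at -1.29 ± 0.057 on the log2 scale (SE; limma adjusted p = 2.52e-08). GUK1 thus had the highest level of the 10 genes under stress and was in place 5 without it.

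**Figure D3:**
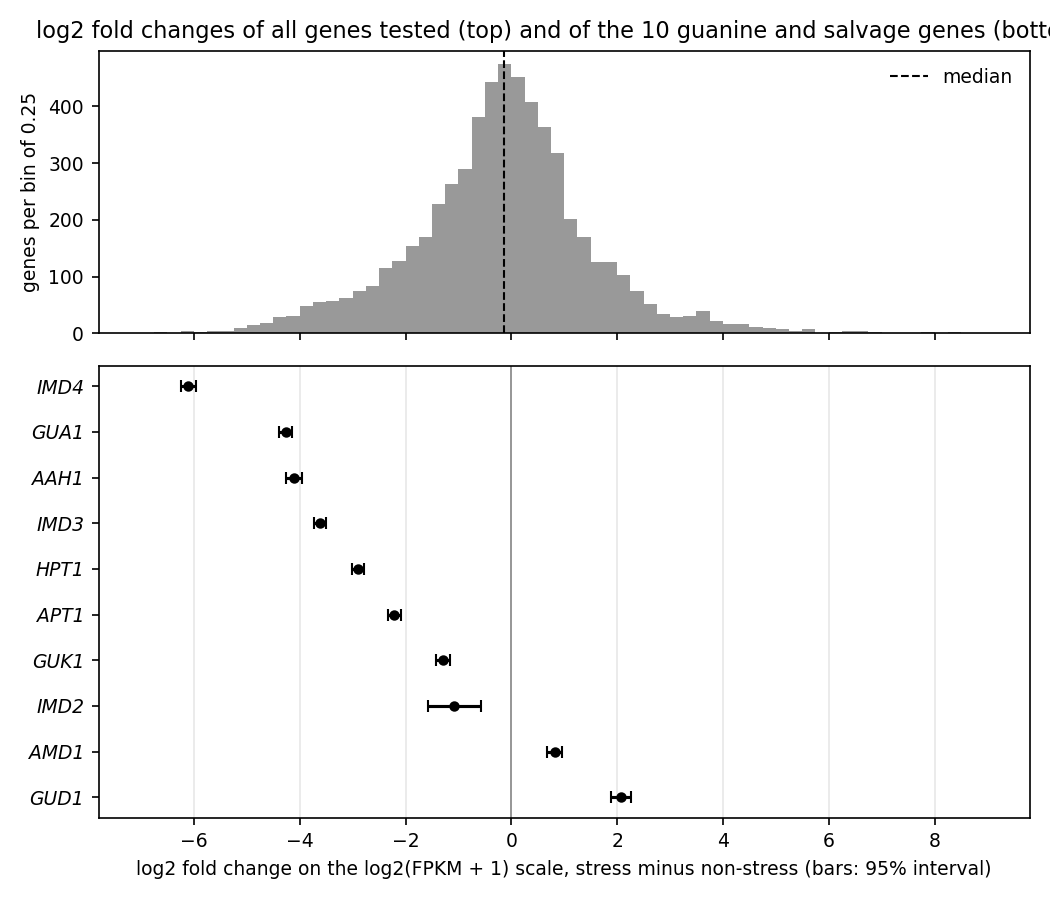
Histogram of log2 fold changes of the 5784 genes tested (top, bins of 0.25, median dashed at -0.14) and the log2 fold change of each of the 10 genes with its 95% interval (bottom). IMD4 lies near the lower end of all genes at -6.11, and the interval of IMD2 is the widest of the 10.

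Genes of base salvage fell as well. HPT1 (chrIV:1270068-1270733, plus strand), which makes IMP and GMP from hypoxanthine and guanine, stood at 521 and 527 FPKM in non-stress and at 68.8 and 70.5 FPKM in stress libraries. The fall was 7.52-fold, or -2.89 ± 0.049 on the log2 scale (SE; limma adjusted p = 3.96e-11). APT1 (chrXIII:228937-229500, plus strand), the adenine phosphoribosyltransferase, was at 205 and 214 FPKM and at 44.7 and 44.2 FPKM, 4.71-fold lower. In both genes the lowest non-stress library lay far above the highest stress library.

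The deaminase genes went in different directions. AAH1 (chrXIV:359596-360639, plus strand), which deaminates adenine and is known to be shut off as yeast cells enter quiescence, stood at 161 and 163 FPKM in non-stress and at 8.48 and 8.47 FPKM in stress libraries. It was 19.2-fold lower, or -4.11 ± 0.064 on the log2 scale (SE; limma adjusted p = 2.39e-11). GUD1 (chrIV:28985-30454, minus strand), the guanine deaminase, was at 9.60 and 9.05 FPKM and at 43.8 and 41.4 FPKM. It rose 4.57-fold, or 2.08 ± 0.083 on the log2 scale (SE; limma adjusted p = 1.08e-08), from above 7.42% of genes tested to above 46.2%. GUD1 and GUA1, far apart in non-stress libraries, had overlapping levels under stress, the only neighbours in the order of levels that overlapped in either group. AMD1 (chrXIII:206428-208860, minus strand), which deaminates AMP to IMP, stood at 44.4 and 42.1 FPKM and at 76.4 and 78.1 FPKM. Its rise was 1.79-fold, or 0.82 ± 0.061 on the log2 scale (SE; limma adjusted p = 1.10e-06). Scaled without ribosomal protein genes, the log2 fold change of AMD1 was 0.39 (limma adjusted p = 0.000211) and that of GUD1 1.66.

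The stretches before the coding starts of the IMD genes and of GUD1 are shown because their responses run from the largest fall of the 10 genes to the largest rise. Each covers 250 bases before and 50 bases of the gene from the first base of the start codon, read from build R64 on the strand of the gene. They lie at chrVIII:554146-554445 (IMD2, plus), chrXII:1002307-1002606 (IMD3, plus), chrXIII:164127-164426 (IMD4, minus) and chrIV:30405-30704 (GUD1, minus). Capitals mark matches to 4 short motifs, searched on both strands: GATGAG, the core of the PAC element found before many ribosome assembly genes, AAAAATTTT, the core of the RRPE element of the same genes, TGACTC, the core bound by Bas1 and Gcn4, and AGGGG, the stress response element.

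IMD2: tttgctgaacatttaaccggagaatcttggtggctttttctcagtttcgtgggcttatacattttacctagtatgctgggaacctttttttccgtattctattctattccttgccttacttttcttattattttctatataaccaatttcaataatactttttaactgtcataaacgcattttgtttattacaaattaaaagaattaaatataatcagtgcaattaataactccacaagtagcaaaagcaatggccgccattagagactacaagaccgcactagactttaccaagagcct

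IMD3: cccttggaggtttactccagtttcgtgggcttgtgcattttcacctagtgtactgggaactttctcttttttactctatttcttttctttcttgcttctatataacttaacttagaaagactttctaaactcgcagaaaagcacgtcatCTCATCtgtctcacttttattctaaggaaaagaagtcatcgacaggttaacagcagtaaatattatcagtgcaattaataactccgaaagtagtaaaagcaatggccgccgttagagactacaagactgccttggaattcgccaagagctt

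IMD4: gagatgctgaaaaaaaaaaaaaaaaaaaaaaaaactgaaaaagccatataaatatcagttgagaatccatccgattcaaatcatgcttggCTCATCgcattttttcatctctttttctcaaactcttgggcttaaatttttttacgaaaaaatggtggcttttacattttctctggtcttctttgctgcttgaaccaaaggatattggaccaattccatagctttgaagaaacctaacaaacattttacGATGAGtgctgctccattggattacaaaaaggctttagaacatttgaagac

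GUD1: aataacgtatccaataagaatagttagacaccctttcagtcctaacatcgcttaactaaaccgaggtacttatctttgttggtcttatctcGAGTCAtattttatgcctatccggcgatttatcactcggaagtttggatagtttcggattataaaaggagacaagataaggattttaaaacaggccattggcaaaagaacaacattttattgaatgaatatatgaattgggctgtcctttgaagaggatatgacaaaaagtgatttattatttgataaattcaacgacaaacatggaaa

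GATGAG was found in 6 of the 10 stretches, those of IMD3, IMD4, GUA1, GUK1, HPT1 and AAH1, and in 19.9% of the 5893 stretches of the same length read for all genes. One of the matches in IMD4 overlaps its start codon, and the other begins 160 bases before it, the same distance as in AAH1. AAAAATTTT was found before GUA1, HPT1 and APT1 (7.04% of all stretches), and in HPT1 and APT1 the matches on both strands overlap each other. TGACTC was found before APT1 and GUD1 (8.11% of all) and AGGGG before HPT1 and AMD1 (21.8% of all). The stretch of IMD2 held none of the 4. A match is a description of letters and shows no binding.

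The 42 other purine genes examined, in 6 lists by role, moved the same way for the most part, by less. Among all genes tested 47.9% fell and 39.8% rose. Of the 42 genes 30 fell, 7 rose and 5 did not pass, with a median log2 fold change of -1.22. These counts depend on the scaling: 36 fell and 4 rose when scaled without ribosomal protein genes (3574 of all 5784 genes fell there, against 2771), and 27 fell and 10 rose after median centring (2447 of all genes fell). In the list of de novo synthesis, 8 of 10 genes fell (median -1.83). This pathway builds IMP from PRPP, but the list also holds ADE12, one of the 8, which acts after IMP. ADE5,7, which encodes an enzyme of early ring assembly, went from 480 and 482 FPKM to 29.7 and 31.1 FPKM, 15.8-fold lower. ADE17 was 9.18-fold lower, while its copy ADE16, which acts at the same last steps to IMP, was at 328 and 330 FPKM and at 317 and 312 FPKM and did not pass. The sign of ADE16 turned after median centring (log2 fold change 0.12, limma adjusted p = 0.0762). ADE16 passed as lower under the other 3 of the 4 scalings. Its log2 fold change was -0.31 after quantile normalization (limma adjusted p = 0.000332), -0.15 at equal FPKM sums (0.0168) and -0.51 without ribosomal protein genes (3.62e-06). ADE8 did not pass either, at 214 and 225 FPKM and at 216 and 222 FPKM, and its sign depends on the scaling. Its log2 fold change was -0.19 after quantile normalization (limma adjusted p = 0.0076), 0.19 after median centring (0.0236) and -0.44 without ribosomal protein genes (1.73e-05). On the branch from IMP to AMP, ADE12 (adenylosuccinate synthase, named after its values were seen) went from 401 and 407 FPKM to 142 and 142 FPKM, 2.85-fold lower, beside 24.9-fold for the summed IMD genes. That difference between branches was not tested.

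**Figure D4:**
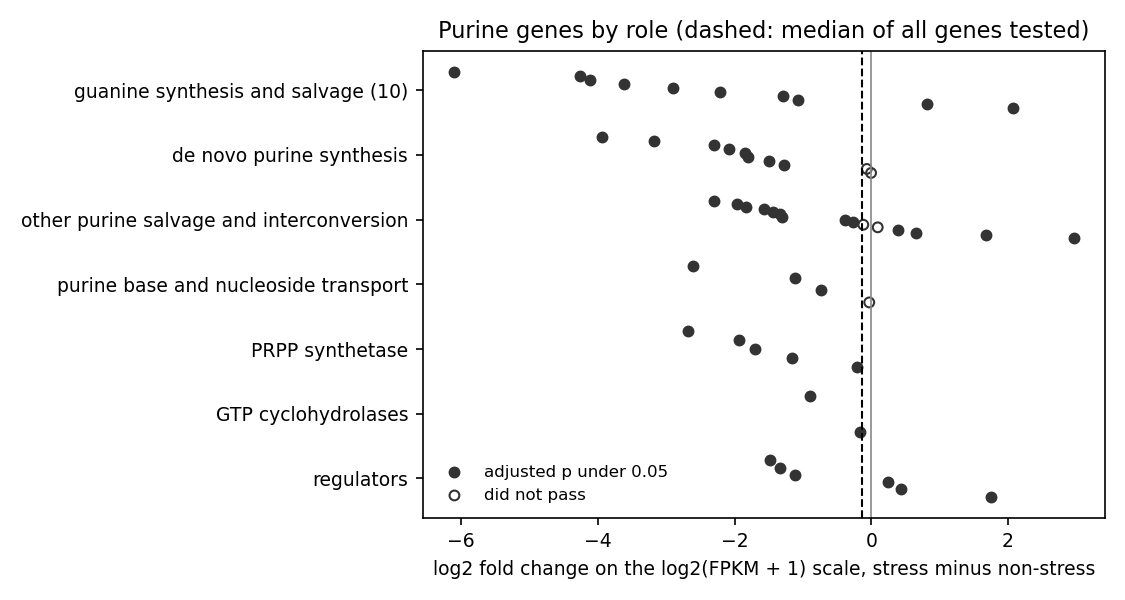
log2 fold changes of the 10 genes and of 42 other purine genes in 6 lists, with filled points for genes that passed the test and open points for the 5 that did not. Most points lie left of 0, and the 2 farthest to the right are YNK1 at 2.96 and GUD1 at 2.08.

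In the list of other salvage and interconversion enzymes 9 of 15 genes fell and 4 rose (median log2 fold change -0.38). Of the 9, ISN1 (-0.27, named with its values known) did not pass after quantile normalization (-0.10, limma adjusted p = 0.11) or median centring (-0.08, 0.221). With 47.9% of all genes tested falling and 39.8% rising, counts this small do not set the list apart. YNK1, the nucleoside diphosphate kinase that makes GTP from GDP, went from 401 and 382 FPKM to 3011 and 3111 FPKM. Its 7.81-fold rise was 2.96 ± 0.052 on the log2 scale (SE, limma adjusted p = 4.93e-11), opposite to the fall of the genes for the steps from IMP to GDP. MEU1, a phosphorylase of methylthioadenosine, which releases adenine, was 5.00-fold lower. The other 3 higher genes, chosen for mention with their values known, were ADK2, a mitochondrial adenylate kinase (3.32-fold), XPT1, the xanthine phosphoribosyltransferase (1.57-fold), and PNP1, purine nucleoside phosphorylase (1.32-fold). Scaled without ribosomal protein genes, PNP1 no longer passed and its sign turned (log2 fold change -0.05, limma adjusted p = 0.455). APT2, the copy of APT1 with 60.3% identical coding bases, was at 77.7 and 77.4 FPKM and at 71.0 and 71.9 FPKM and did not pass, nor did PHM8 (log2 fold change 0.09). APT2 passed as lower at equal FPKM sums (-0.20, limma adjusted p = 0.0105), without ribosomal protein genes (-0.55, 6.18e-06) and with no filter (0.044). After median centring its sign turned and it did not pass (0.07, limma adjusted p = 0.226). PHM8 passed as higher after quantile normalization (0.27, limma adjusted p = 0.00166) and median centring (0.28, 0.00101), and as lower without ribosomal protein genes (-0.34, 0.000535).

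The counts of the next short lists stand beside 47.9% of all genes tested that fell. All 5 PRPP synthetase genes fell (median log2 fold change -1.70), led by PRS1 (6.52-fold) and PRS5 (3.87-fold). The smallest of these, PRS2 (-0.20), was lost without stress replicate 1 (limma adjusted p = 0.0552) and after median centring (-0.01, limma adjusted p = 0.829). Of 4 transporter genes 3 fell, among them FCY2, the purine and cytosine permease (394 ± 18.5 FPKM against 63.6 ± 5.03 FPKM, SD, n = 2), and FCY21 (2.22-fold), and FCY22 did not pass (-0.03). FCY22 passed as higher after quantile normalization (0.18, limma adjusted p = 0.0216) and median centring (0.16, 0.0283), and as lower without ribosomal protein genes (-0.46, 5.82e-05). The GTP cyclohydrolase genes, which start folate and riboflavin synthesis from GTP, were RIB1, 1.88-fold lower, and FOL2, whose log2 fold change of -0.17 just passed (limma adjusted p = 0.0487). The call on FOL2 was lost without non-stress replicate 1 (limma adjusted p = 0.289) and without stress replicate 1 (0.294), with a pseudocount of 0.1 (0.0529) and with no filter (0.114), and its sign turned after median centring (0.02).

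Regulator genes went both ways, 3 higher and 3 lower, near the 39.8% and 47.9% of all genes tested. When scaled without ribosomal protein genes, 1 was higher and 4 lower (1606 and 3574 of all 5784 genes). NAB3, a partner of NRD1, turned from a log2 fold change of 0.25 to -0.19 under that scaling (limma adjusted p = 0.0102). SAF1, the F-box protein gene known for directing Aah1 to degradation, rose 3.43-fold, from 41.0 and 36.5 FPKM to 132 and 133 FPKM, the opposite direction to AAH1. NRD1, part of the complex that ends short transcripts such as those started upstream at IMD2, was 2.87-fold lower. BAS1, an activator of purine synthesis genes, fell from 30.4 and 29.5 FPKM to 10.4 and 12.3 FPKM, and its partner PHO2 had a log2 fold change of 0.44, which did not pass when scaled without ribosomal protein genes (limma adjusted p = 0.996). BAS1, PHO2 and NAB3 were named after their values were seen.

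By the smallest distance between mean-centred log2(FPKM + 1) values over the 4 libraries, the genes most like IMD4 among the 5784 were RPS22A and RPS26B, which encode proteins of the small ribosomal subunit, and GPP1, a glycerol-3-phosphatase. Their distances were 0.143, 0.243 and 0.158. The genes most like GUD1 were MRPS28 (0.018), a mitochondrial ribosomal protein gene, YEF1 (0.0187), an NADH kinase gene, and YME2 (0.0413), a mitochondrial inner membrane protein gene. With 2 conditions such a distance mainly reflects the size of the change.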

How the data were processed

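The authors deposited FPKM values for every gene in each library, per the file headers. Named in the submitters' processing notes are RSEM 1.2.8, Bowtie2 2.2.5, HISAT2 2.1.0 and build R64, whose roles are not stated, and read filters are not given in the sources used here. Of the 5897 genes, 5894 were matched by identifier to the R64 annotation and 5814 had the same coordinates. Also used from the authors' deposited columns were identifiers, coordinates, transcript length (98.8% multiples of 3, so coding length) and the column headed WGCNA.

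Depth was estimated by finding the fragment total and length offset (36 or 37 bases) at which FPKM values worth under 8 reads became whole reads. Of 66 to 90 such values per library, 84.8% to 94.0% were whole to within 0.1, where chance gives 20% for a setting fixed beforehand. The setting was the best of many tried on the same values, so 20% understates what such a search reaches by chance. The depths are estimates, and no count test was run. Between replicates the median chi-square per gene on estimated reads was 2.23 (non-stress) and 0.816 (stress), against 0.455 by sampling alone, so no pair was treated as the same library deposited in duplicate, which does not show that the cultures were separate.

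Stress was compared with non-stress by limma 3.58.1 in R 4.3.3 (lmFit, eBayes with trend, two-sided) on log2(FPKM + 1), for the 5784 genes that reached an FPKM of 1 in 2 or more libraries, with adjustment over all of them. This scale understates changes of low genes, and folds given without it divide the group means. The fit had 2 residual and 6.51 prior degrees of freedom and was tested on simulated data. Sequences and motifs were read with Python 3.11.15 and Biopython 1.88. The genes and lists were chosen with earlier results of these data known. Named were all 10 genes, per list the 2 largest changes at a mean FPKM of at least 20 and every gene that did not pass, and 3 genes most like IMD4 and GUD1. Alternatives were 4 scalings, no filter or an FPKM minimum of 5, the replicate block, leaving out libraries singly, another pseudocount (0.1) and a threshold of 0.01.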

Additional observations from a re-analysis of the deposited data

How the results depend on the processing

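Across the alternatives, 118 of 119 values of the 10 genes kept their direction and side of the threshold, and the exception was IMD2 after quantile normalization. The changes of filter and the replicate block leave the log2 fold change itself unchanged, so direction could not move there. IMD2 could not be fitted at a minimum FPKM of 5, which removes it, leaving 7 genes called lower. The number of the 42 other purine genes called higher was 7, with 9 after quantile normalization, 10 after median centring and 4 when libraries were scaled without ribosomal protein genes. The last scaling moved the median log2 fold change of all genes by -0.43, quantile normalization by 0.23 and median centring by 0.19, so changes of this size depend on the scaling, and the share of calls that were higher went from 45.4% to 31.0%, 53.1% and 52.1%. The cause was not tested. Same-numbered libraries did not deviate together (correlation -0.005 across genes), so the numbers were not taken as pairs. With the replicate number as a block, 2298 genes were higher and 2775 lower, and the calls on the 10 genes stayed at 2 and 8. Without each library in turn they were also 2 and 8. Leaving out a library leaves 1 in its group, which is assumed to vary like the other group. The 14 to 21 estimated reads of IMD2 under stress limit what can be said of it.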

Other observations

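The authors' deposited table also has a column headed WGCNA that gives colour names to some genes, with no description of how they were assigned. In the authors' deposited table, turquoise was given to 521 genes (8.84% of all), among them AAH1, GUA1, GUK1, IMD3 and IMD4. Blue, given to 356 genes (6.04% of all), and brown, given to 163 (2.76%), were given to 0 of the 10 genes.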
